A study of Arabidopsis thaliana with 6 samples.

Results

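The genes described here are FT (AT1G65480), TSF (AT4G20370), TFL1 (AT5G03840), FD (AT4G35900), TEM1 (AT1G25560) and TEM2 (AT1G68840, named RAV2 in RefSeq), 6 of 27444 protein-coding nuclear genes of Arabidopsis thaliana. They were chosen by locus, and a ChIP-seq peak was counted for a gene if the summit fell inside the gene or no more than 3 kb away. By this rule 7 of 2225 peaks of wild-type SEP3 and 6 of 3601 peaks of a tetramerization-deficient SEP3 belonged to these genes.

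SEPALLATA3 (SEP3) belongs to the MADS-domain transcription factors of floral organ identity and binds DNA as dimers and, by joining a pair of dimers, as tetramers. Its binding was mapped in inflorescences, the flower-bearing shoots, of sep1,2,3 mutant plants rescued with a transgene under the SEP3 promoter. The genotypes were pSEP3:SEP3wt;sep1,2,3 (SEP3wt) and pSEP3:SEP3tet;sep1,2,3 (SEP3tet, tetramerization-deficient). All plants thus shared the sep1,2,3 background and the promoter and differed in the transgene. Per line, 2 samples were precipitated with an antibody to native SEP3 and 1 with pre-immune serum as a mock, from about 1 g of tissue each; plants grew at 22 °C in long days (16 h light, 8 h dark). Plant age and the number of independent transgenic lines are not given in the sources used here. The values were 1 peak list per line, so the spread between replicates is unknown and no test between lines was made. Sequencing depth is unknown, and mock signal was not analysed here.

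FT and its close relative TSF encode florigens, small proteins made in leaf veins under inductive day length that travel to the shoot tip. There FT acts with the bZIP transcription factor FD to switch on floral genes such as AP1 and SOC1. TFL1, a protein of the same PEBP family as FT, opposes this switch and keeps the inflorescence meristem growing. TEM1 and TEM2 are RAV transcription factors, with an AP2 and a B3 DNA-binding domain, that repress FT and gibberellin synthesis genes and so delay flowering.

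By the 3-kb window, SEP3 peaks were counted for the partner of florigen and both TEM repressors, and none for the florigen genes or TFL1. The only TEM2 peak of each line lay nearer to the neighbouring gene STN7. Of the 7 SEP3wt and 6 SEP3tet peaks, 4 in each list had the gene they were counted for as the nearest gene. FD, TEM1 and TEM2 had a summit in the window in both lines, 3 of 6 genes in each, beside 13.7% of all protein-coding genes in SEP3wt, 21.2% in SEP3tet and 12.4% in both. FT, TSF and TFL1 had a summit in neither line, as did 77.5% of all genes. None of the 6 genes was a target in 1 line alone, beside 1.30% of genes in SEP3wt only and 8.79% in SEP3tet only. The window of these genes was 7373 to 8627 bp long, with genes of 1373 to 2627 bp against a median of 2078 bp over all genes. With peaks of a −log10 q of at least 10 alone, 0 of the 6 genes kept a peak in SEP3wt, beside 4.60% of all genes, and 2 did in SEP3tet (FD and TEM1), beside 7.76%. The peak that kept FD lay 2410 bp from FD and nearer to LARP1c, at 1076 bp. The SEP3tet peak with its summit inside FD fell below this floor (−log10 q 6.96).

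**Figure D1:**
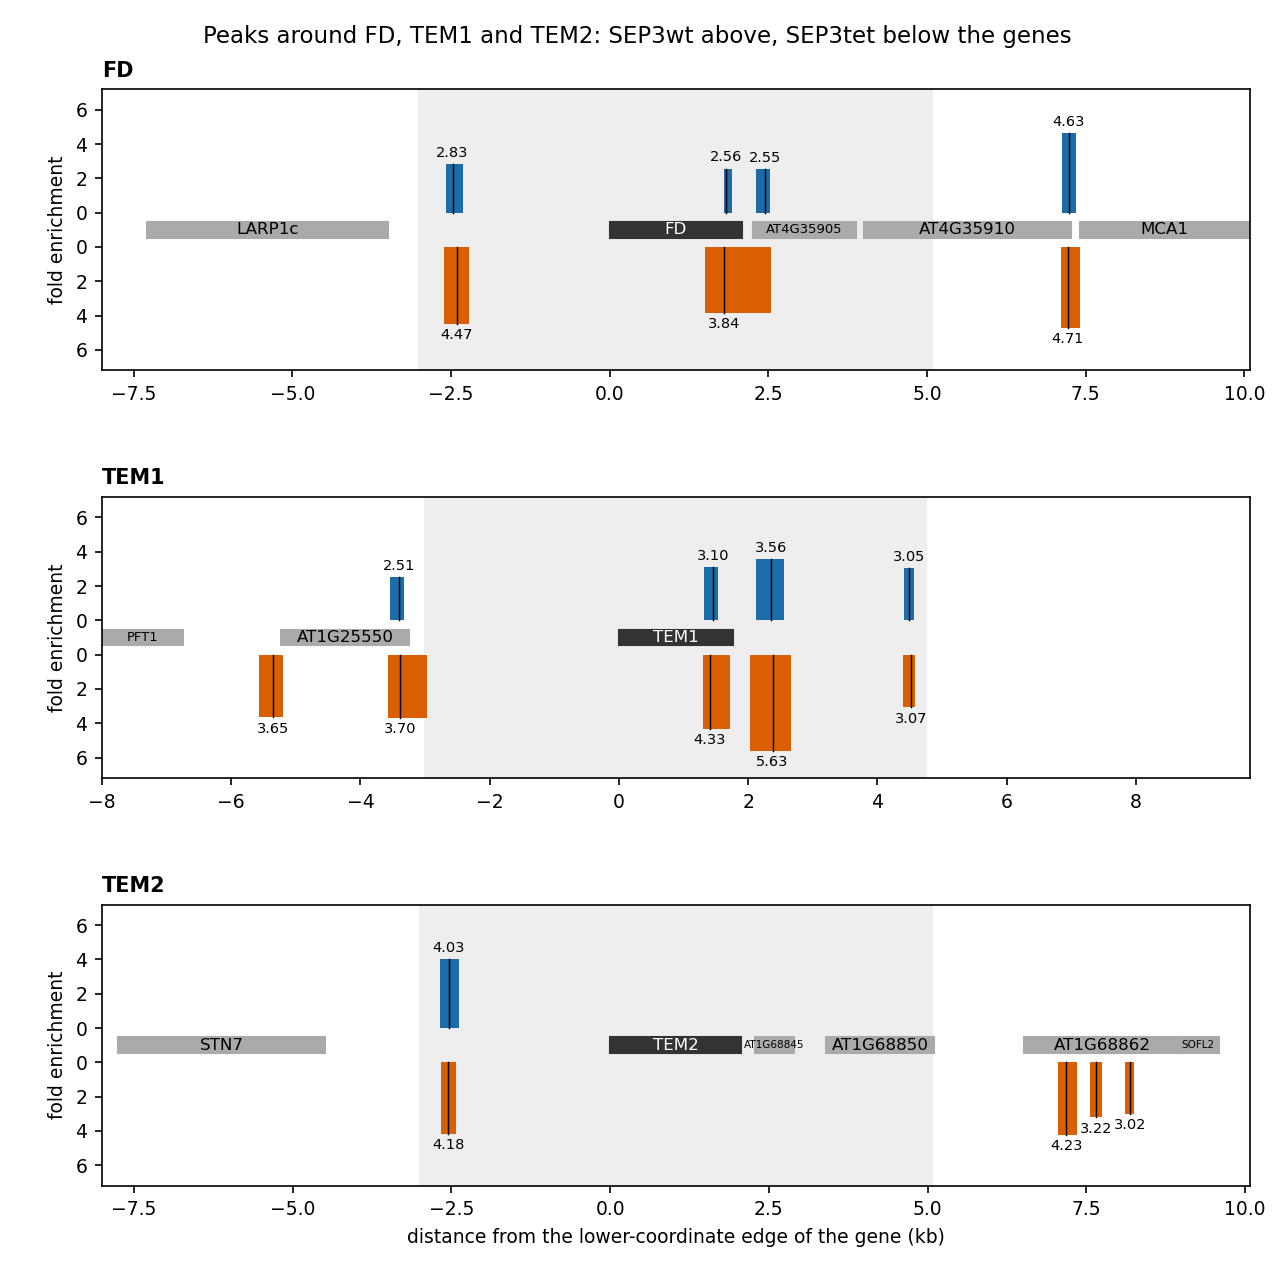
Peaks around FD, TEM1 and TEM2, with distance from the lower-coordinate edge of each gene in kb on the x axis and the authors' fold enrichment on the y axis; bars above the gene boxes are SEP3wt peaks, bars below are SEP3tet peaks, black lines are summits and the grey field is the gene with 3 kb to either side. Inside the grey field FD has 3 SEP3wt and 2 SEP3tet summits, TEM1 has 3 in each line and TEM2 has 1 in each line.

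The fold enrichment of a peak is the authors' ratio of signal over background at the summit, as their peak caller gave it, and −log10 q is the peak caller's measure of confidence. The strength of a peak was read within its own list, by the share of that list's peaks with a lower fold. The −log10 q served as a floor, applied equally to both lists. With depth unknown, an equal floor need not be equally strict for both lines. Positions are those of the peaks on TAIR10. The RefSeq gene table gave no strand, so sides of a gene are named by coordinate.

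TEM1 carried the richest set of peaks, 3 in each line, at the same 3 places. At least 3 summits were found at 0.619% of all genes in SEP3wt, at 1.06% in SEP3tet and at 0.277%, or 76 genes, in both lines. The first pair of peaks had its summit inside TEM1, at 8982867 to 8983093 of chromosome 1 in SEP3wt (fold 3.10, −log10 q 4.43) and at 8982849 to 8983282 in SEP3tet (fold 4.33, −log10 q 9.50). The summits of this pair lay 51 bp apart.

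The strongest pair at TEM1 lay just outside the gene, on the side of higher coordinates. In SEP3wt it spanned chromosome 1, 8983684 to 8984103, with its summit 598 bp from the gene, a fold of 3.56 and a −log10 q of 7.19. In SEP3tet it spanned 8983584 to 8984211, with its summit 619 bp from the gene, a fold of 5.63 and a −log10 q of 16.7. In its own list, 56.6% of SEP3wt peaks and 86.2% of SEP3tet peaks had a lower fold. It was the SEP3tet peak with the highest fold at any of these genes.

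Another pair lay farther out on the same side, 2733 bp from the gene in SEP3wt (chromosome 1, 8985965 to 8986120; fold 3.05) and 2765 bp in SEP3tet (8985953 to 8986145; fold 3.07). This pair was narrow, 156 and 193 bp, and weak in both lists, where 32.9% of SEP3wt and 24.4% of SEP3tet peaks had a lower fold. Neighbouring summits were 903 and 2135 bp apart in SEP3wt and 975 and 2146 bp apart in SEP3tet. TEM1 was the nearest gene of all 6 summits, and no other protein-coding gene had any of them in its window.

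TEM2, the partner of TEM1 in FT repression, had a single peak in each line, and the positions nearly coincided. The SEP3wt peak spanned chromosome 1, 25877477 to 25877771, with a fold of 4.03 and a −log10 q of 9.01. The SEP3tet peak spanned 25877486 to 25877728, with a fold of 4.18 and a −log10 q of 8.83. The summits were 2 bp apart, 2544 and 2546 bp from TEM2 on the side of lower coordinates.

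This was the highest fold of the 7 SEP3wt peaks, and it stood in the upper part of both lists, with 68.1% of SEP3wt and 64.3% of SEP3tet peaks lower. The summit was nearer to the neighbour STN7, a kinase gene of photosynthetic acclimation, at 1949 and 1947 bp. It was therefore a TEM2 peak by the window and an STN7 peak by the nearest gene, and peak position does not tell these apart. With a window of 1 kb TEM2 was a target in neither line, beside 7.79% of all genes in SEP3wt and 12.3% in SEP3tet.

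FD had 3 summits in SEP3wt and 2 in SEP3tet, all weak in the SEP3wt list. A peak on the side of lower coordinates spanned chromosome 4, 17001809 to 17002076, in SEP3wt (fold 2.83, −log10 q 3.46). In SEP3tet it spanned 17001763 to 17002165 (fold 4.47, −log10 q 10.2), with the summits 67 bp apart. Its summits lay 2477 and 2410 bp from FD but 1009 and 1076 bp from LARP1c, the gene on the other side of the intergenic stretch.

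The second FD region was called as a pair of narrow peaks in SEP3wt and as 1 wide peak in SEP3tet. The SEP3wt peaks spanned chromosome 4, 17006178 to 17006314, with the summit inside FD (fold 2.56, −log10 q 2.12), and 17006690 to 17006903, with the summit 368 bp beyond FD and inside AT4G35905 (fold 2.55, −log10 q 2.74). The SEP3tet peak spanned 17005879 to 17006929, a width of 1051 bp, and covered both. Its summit lay inside FD, 32 bp from that of the first SEP3wt peak, with a fold of 3.84 and a −log10 q of 6.96.

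The pair of SEP3wt summits and the single SEP3tet summit thus belonged to 1 overlapping region. Only 6.88% and 6.56% of SEP3wt peaks had a lower fold than the pair inside and beside FD, whereas 55.5% of SEP3tet peaks had a lower fold than the wide one. Widths over 1 kb were found in 3.78% of SEP3tet and 7.82% of SEP3wt peaks. With peaks of a −log10 q of at least 5 alone, FD was a target in SEP3tet and not in SEP3wt, beside 14.7% and 8.46% of all genes. All FD peaks overlapped a peak of the other line, and a difference between lines was not tested.

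Across FD, TEM1 and TEM2 together, every peak in the window had a counterpart in the other line. All 7 SEP3wt peaks and all 6 SEP3tet peaks overlapped a peak of the other list by at least 1 bp, beside 84.7% and 53.3% of the whole lists. Summits of overlapping peaks lay 2 to 67 bp apart, apart from the SEP3wt peak in AT4G35905, which lay 642 bp from the summit of the wide SEP3tet peak. Of the SEP3wt peaks 2 had their summit in the gene, 2 within 1 kb and 3 at 1 to 3 kb, and of the SEP3tet peaks 2, 1 and 3.

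Peaks at these genes lay mostly below the list's median fold in SEP3wt and mostly above it in SEP3tet. In SEP3wt their fold ran from 2.55 to 4.03 with a median of 3.05, and 2 of 7 lay above the list's median of 3.38. In SEP3tet it ran from 3.07 to 5.63 with a median of 4.25, and 5 of 6 lay above the list's median of 3.65. The highest folds of the lists were 10.8 and 11.9, far above any of these peaks.

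**Figure D2:**
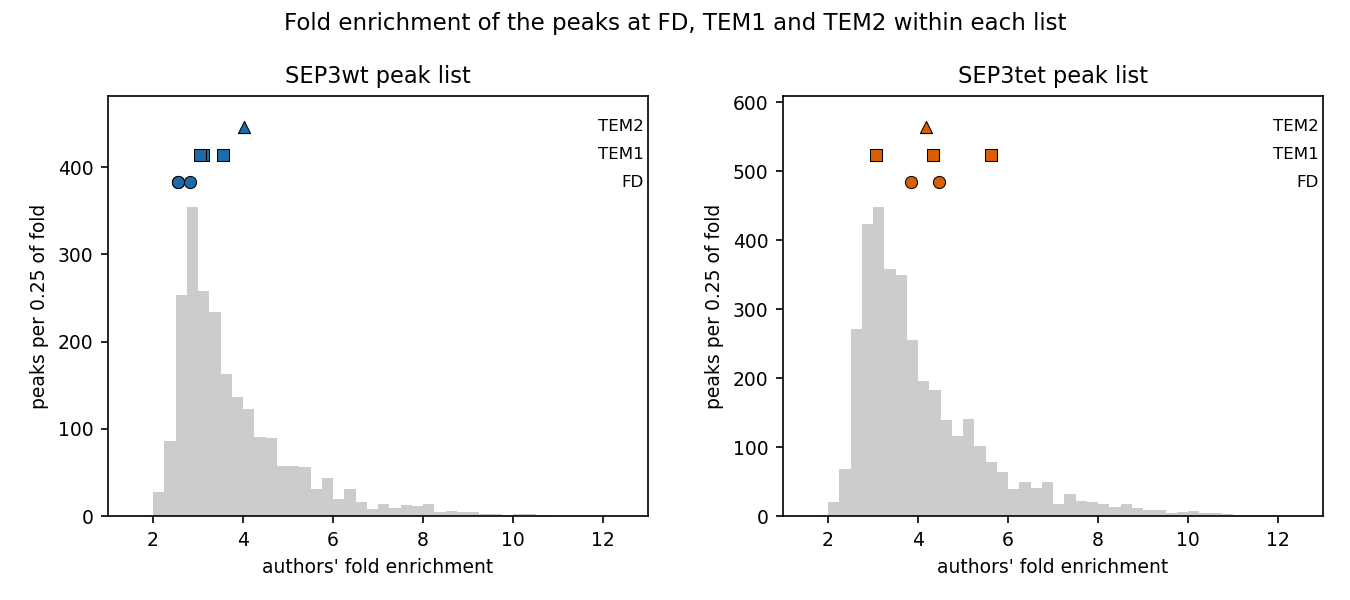
Fold enrichment of the peaks at FD (circles), TEM1 (squares) and TEM2 (triangles) above the distribution of all peaks of the same list (grey bars, peaks per 0.25 of fold), with SEP3wt on the left and SEP3tet on the right. The SEP3wt points lie between 2.55 and 4.03 and the SEP3tet points between 3.07 and 5.63, all well below the highest folds of the lists, 10.8 and 11.9.

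The 3-kb limit cut through the peaks around TEM1. The summits just inside it were those at 2765 bp (TEM1, SEP3tet), 2733 bp (TEM1, SEP3wt) and 2546 bp (TEM2, SEP3tet). Just outside lay a shared TEM1 peak on the side of lower coordinates, at 3398 bp in SEP3wt (chromosome 1, 8978007 to 8978230; fold 2.51) and 3391 bp in SEP3tet (8977985 to 8978584; fold 3.70). Its summits, 7 bp apart, lay inside the neighbouring gene AT1G25550.

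FT stood in a wide region without a SEP3 peak. The nearest SEP3wt summit was 109 kb away, in YSL7 (chromosome 1, 24442949 to 24443152; fold 3.97), and 6.91% of protein-coding genes were as far or farther from a SEP3wt summit. The nearest SEP3tet summit was 67.9 kb away on the other side, near CBSX6 (24263310 to 24263518; fold 3.02), and 7.14% of genes were as far or farther. The stretch without a summit spanned 304 kb with 84 whole genes in SEP3wt and 141 kb with 36 in SEP3tet.

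At TSF the nearest SEP3wt summit was also distant, 102 kb away near GALS3 (chromosome 4, 10899185 to 10899369; fold 2.67), a distance reached by 7.67% of genes. The nearest SEP3tet summit was 18.5 kb away, near AT4G20430 (11021322 to 11021615; fold 4.47), and 35.2% of genes were as far or farther. Neither peak overlapped a peak of the other line.

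TFL1 lay at an ordinary distance from SEP3 peaks. Its nearest SEP3wt summit was 18.8 kb away, nearest to AT5G03885 (chromosome 5, 1044495 to 1044813; fold 5.11), against a median of 19.1 kb over all genes. The nearest SEP3tet summit was 12.3 kb away, near AT5G03880 (1038094 to 1038340; fold 3.31), against a median of 11.4 kb. The lists hold only peaks past the authors' threshold, so weaker occupancy at FT, TSF or TFL1 was not measured here.

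**Figure D3:**
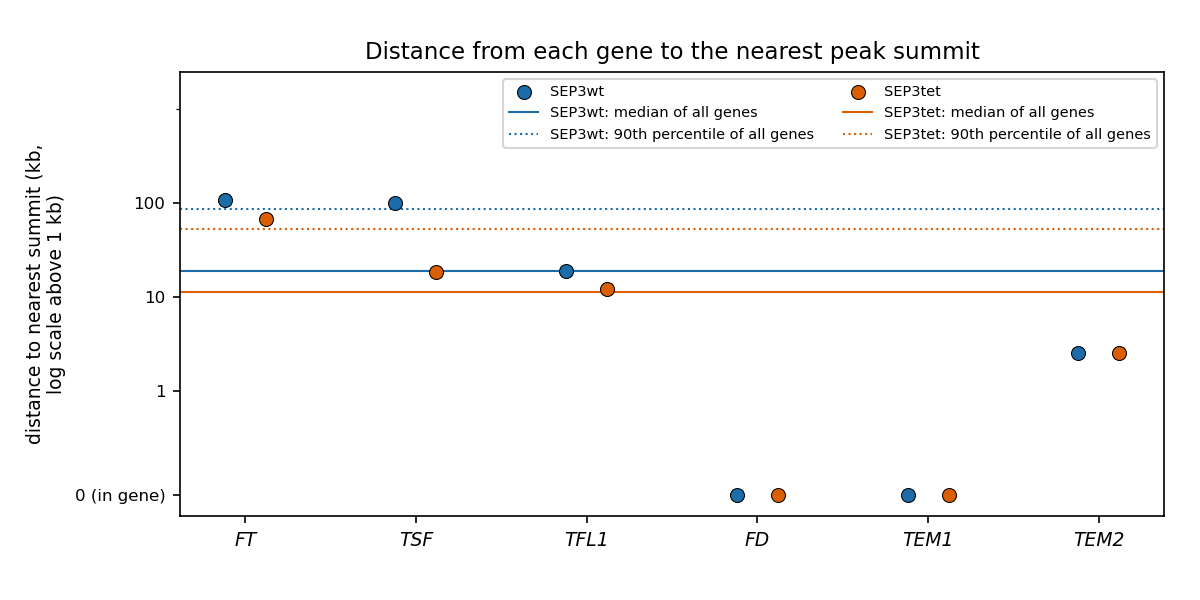
Distance in kb from each gene to the nearest summit of the SEP3wt list (blue) and the SEP3tet list (orange), on an axis that is logarithmic above 1 kb, with the median (solid lines) and the 90th percentile (dotted lines) of all protein-coding genes. FT lies above the 90th percentile in both lists (85.8 and 52.7 kb), TSF in SEP3wt, TFL1 close to the medians, and FD and TEM1 hold a summit inside the gene.

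Close relatives of these genes ranged from strong peaks to none. Of the other PEBP genes, ATC, a TFL1-like repressor of flowering, had a strong shared peak 1484 bp from the gene in SEP3wt (AT2G27550; chromosome 2, 11771436 to 11771910; fold 6.20) and 1512 bp in SEP3tet (fold 9.34). In its list 93.2% of SEP3wt and 98.8% of SEP3tet peaks had a lower fold. BFT, a further TFL1-like gene, and MFT, a regulator of seed germination, had no summit in either line, as FT, TSF and TFL1 had none. FDP, the bZIP relative of FD, had none, while BRC1, a TCP factor that binds FT protein in axillary buds, had a shared peak with folds of 6.42 in SEP3wt and 7.36 in SEP3tet.

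Among the RAV relatives of TEM1 and TEM2, RAV1 had a peak of higher fold than either TEM gene in the same list. Its strongest peak had a fold of 5.93 in SEP3wt (AT1G13260; chromosome 1, 4541816 to 4542208; 159 bp from the gene) and of 11.1 in SEP3tet (4541668 to 4543729), where 99.9% of peaks were lower. EDF3 had a summit in SEP3tet only (fold 4.18), nearest to a neighbouring gene, and the RAV-like genes AT1G50680 and AT1G51120 had none.

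Of the genes that feed into FT by day length, light or warmth, 5 of 14 were targets in SEP3wt and 6 of 14 in SEP3tet, beside 13.7% and 21.2% of all genes. CO, the central activator of FT, and GI, a clock protein upstream of it, had no summit in either line. PIF4, a bHLH factor that activates FT in warmth, had the highest fold of this list (6.15 in SEP3wt and 7.79 in SEP3tet, summit in the gene), followed by NF-YB2, a partner of CO (4.46 and 5.43). CDF1, a Dof repressor of CO and FT, had 2 summits in each line, the stronger with a fold of 3.59 in SEP3wt and 3.60 in SEP3tet. FKF1, the light receptor that removes CDF proteins, and CIB1, a bHLH activator of FT, had weak peaks in both lines (strongest folds 2.72 and 2.78 in SEP3wt, 2.83 and 3.31 in SEP3tet), and CDF3 had a peak in SEP3tet only, with a fold of 4.28. The strongest FKF1 peaks of the lines were different sites. CDF2, CDF5, NF-YB3, NF-YC3, NF-YC4 and NF-YC9 had none.

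Repressors of FT other than the TEM genes had summits at 6 of 10 in SEP3wt and 7 of 10 in SEP3tet, beside the same 13.7% and 21.2%. SVP, SMZ, SNZ, TOE1, TOE3 and AP2 were targets in both lines and FLC in SEP3tet only, with FLM, TOE2 and LHP1 in neither. Within the AP2-like repressors the strongest folds in SEP3wt were 9.24 at TOE3, 8.81 at SNZ, 7.72 at AP2, 5.66 at SMZ and 4.60 at TOE1. In SEP3tet they were 11.7, 7.99, 7.75, 7.79 and 7.26 in the same order of genes. Each of these was above the strongest TEM1 and TEM2 peak of the same list. At AP2 the strongest peaks were different sites of chromosome 4, 17398748 to 17399160 in SEP3wt and 17404692 to 17405303 in SEP3tet.

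Genes activated by FT and FD had summits at 5 of 10 in SEP3wt and 7 of 10 in SEP3tet, again beside 13.7% and 21.2% of all genes. SOC1, AP1, FUL, SEP3 and SPL5 were targets in both lines, and LFY and SPL4 in SEP3tet only with folds of 3.36 and 2.78. AGL24, CAL and SPL3 were targets in neither. Folds of the strongest peaks in SEP3wt were 7.50 at SOC1, 6.91 at SPL5, 6.53 at FUL, 6.42 at AP1 and 3.97 at SEP3, all above the strongest FD peak of that list. The strongest peaks counted for SOC1, SPL5, SEP3, SMZ and SNZ lay nearest to a neighbouring gene in both lines, as did those of SVP, AP2, CDF3, FKF1 and FLC in SEP3tet. Reads of the SEP3 transgene and of the native SEP3 locus were not told apart here.

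FTIP1, which moves FT protein out of the phloem companion cells, had a summit in SEP3tet only (fold 5.31), 2919 bp from the gene and nearest to TGA10, and NaKR1, of the same export route, had none. GA3OX1 and GA3OX2, the gibberellin synthesis genes that TEM proteins repress, had no summit in either line. Over these 8 lists 19 of 47 genes had a summit in SEP3wt (40.4%) and 25 in SEP3tet (53.2%), 19 of them in both. The shares of all genes were 13.7%, 21.2% and 12.4%. The lists were chosen with earlier results of these data known, and enrichment was not tested. The median fold of a gene's strongest peak was 6.15 in SEP3wt and 7.36 in SEP3tet over these list genes. Over FD, TEM1 and TEM2, the 3 of 6 genes with a peak, it was 3.56 and 4.47. Over all target genes it was 3.59 and 3.89. The strongest peaks counted for FD and TEM2 lay nearest to LARP1c and STN7 in both lines.

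**Figure D4:**
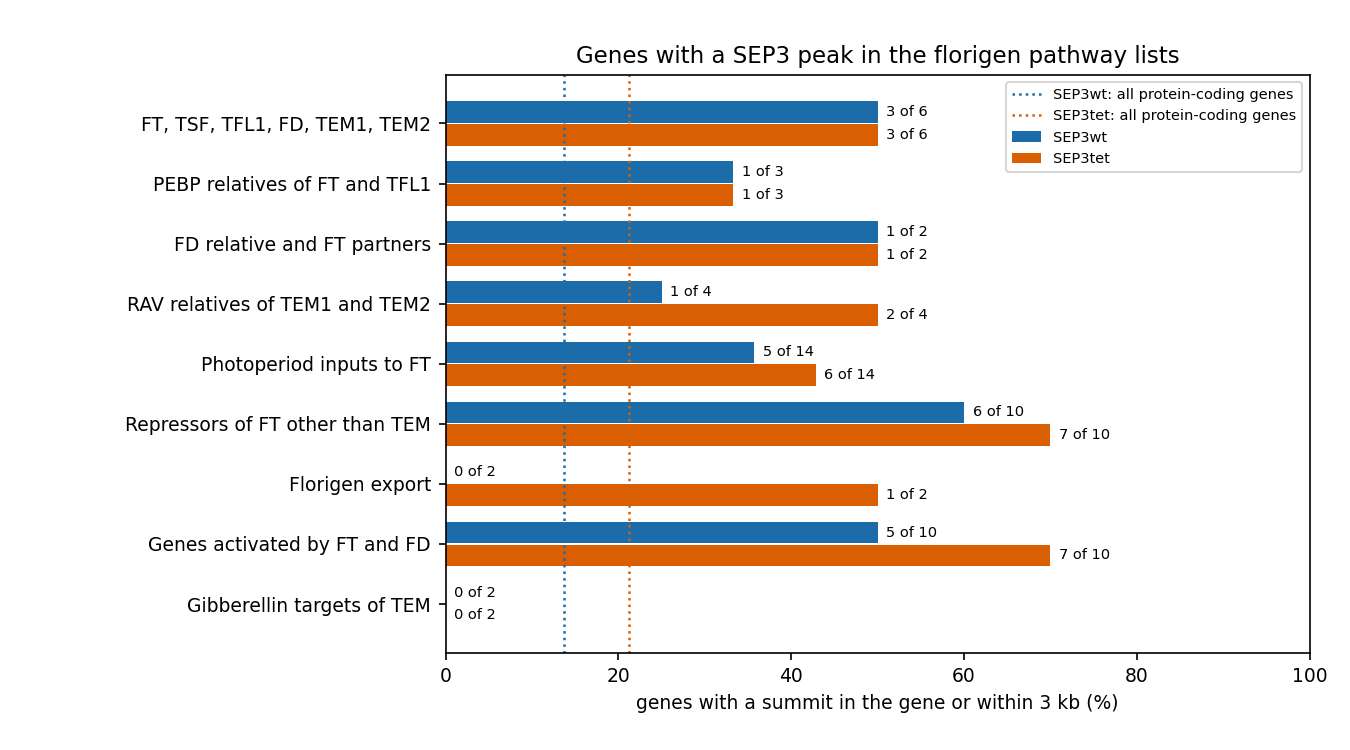
Share of genes with a summit in the 3-kb window (x axis, %) for the 6 genes described and for 8 lists of related genes, in SEP3wt (blue) and SEP3tet (orange), with the share over all protein-coding genes as dotted lines. The 6 genes reach 3 of 6 in both lines, repressors of FT other than the TEM genes reach 6 and 7 of 10, and the gibberellin genes reach 0 of 2.

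The list genes most like FD, TEM1 and TEM2 were found from the strongest peak's percentile in each list, among 19 genes with peaks in both lines and over 2 values per gene. FD was closest to CIB1 (summed difference 37.5 percentile points), then CDF1 (60.0) and FKF1 (62.4). TEM1 was closest to SEP3 (21.4), NF-YB2 (22.3) and TOE1 (31.3), and TEM2 to CDF1 (27.5), NF-YB2 (28.5) and SEP3 (32.0). With only 2 values per gene these are loose neighbours. Likeness was by fold percentile alone. The FD and TEM2 peaks used lay nearest to LARP1c and STN7, not to FD and TEM2. The strongest SEP3 peak, nearest to AT1G24265, had a −log10 q of 28.6 in SEP3wt and 48.5 in SEP3tet, against 7.19 and 16.7 at TEM1.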

How the data were processed

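SEP3 binding in inflorescences of the SEP3wt and SEP3tet lines was analysed from 2 deposited peak lists, 1 per line, which the labels attach to that line's 2 ChIP samples. The submitters' processing notes name TAIR10 as the build and the tools MACS2 2.2.7.1, Bowtie2 2.2.5, deepTools and Trimmomatic 0.36. How replicates and mock samples entered the calling is not stated in the labels. The fold enrichment of a peak is the authors' deposited ratio, and −log10 q is the deposited value of the authors' peak caller. The deposited score and −log10 p were not used.

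Gene names and positions came from a RefSeq table of TAIR10.1, in which all 53 loci matched. Without a shift 45.3% of SEP3wt and 39.8% of SEP3tet summits fell in genes. After 6 shifts of 2 to 10 kb the shares were 58.5 to 64.0% and 59.7 to 64.0%. The unshifted share thus stood apart from every shifted one, but offsets under 2 kb were not tested. Both sets of positions were used together. Window and overlap counts were tested on simulated data (Python 3.11.15, pandas 2.3.3). Alternatives changed the window, the q threshold, the peak number and the overlap. Named are all 6 genes, list genes with a summit, and genes near their summits. Genes, lists and rules were chosen with earlier results of these data known, and no sequence was used here.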

Additional observations from a re-analysis of the deposited data

How the results depend on the processing

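FD, TEM1 and TEM2 were the targets in both lines with a 5-kb window, beside 19.7% of all genes in SEP3wt and 29.5% in SEP3tet. The same held with any base of the peak counted (14.3 and 22.0%). Both settings contain the main window, so neither could lose a target. With equal numbers of strongest peaks, 2225 per list, the SEP3wt list was whole and could lose none (13.7%). In SEP3tet this setting kept FD, TEM1 and TEM2, beside 14.6% of all genes. TEM2 was lost in both lines with a 1-kb window, gene bodies alone or the nearest gene only, which left FD and TEM1. All-gene shares were then 7.79, 3.11 and 6.74% in SEP3wt and 12.3, 4.53 and 10.6% in SEP3tet. At a −log10 q of at least 5, FD was lost in SEP3wt (2 genes left, beside 8.46% of all genes). At a −log10 q of at least 10, 0 of the 6 genes remained in SEP3wt, beside 4.60% of all genes, and 2 (FD and TEM1) in SEP3tet, beside 7.76%. FD remained there only through its peak nearest to LARP1c. With gene bodies alone, an alternative chosen after seeing the data, the 8 related lists fell from 19 to 6 genes in SEP3wt and from 25 to 6 in SEP3tet, while the share of all genes fell from 13.7 to 3.11% and from 21.2 to 4.53%. Overlap of at least 50% of both peaks left 5 of 7 SEP3wt and 5 of 6 SEP3tet peaks shared. Summits within 100 bp left 6 and 6. Shares of the whole lists under these stricter rules were not computed. The other counts moved by no more than 1.5 times. No replicate could be left out, and no paired analysis was possible because each line had 1 peak list for its 2 ChIP samples. With depth unknown, a peak absent from a list is not evidence that the site was unbound.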

Other observations

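Further peaks lay between 3 and 9 kb from FD, TEM1 and TEM2. Beside FD, a shared peak with its summit in AT4G35910 lay 5155 bp from FD in SEP3wt (chromosome 4, 17011509 to 17011733; fold 4.63) and 5139 bp in SEP3tet (17011485 to 17011785; fold 4.71). Its fold was above that of every peak within 3 kb of FD in the same list. On the side of higher coordinates of TEM2, SEP3tet had 3 summits inside the unnamed gene AT1G68862, at 5113, 5589 and 6117 bp from TEM2 and with folds of 4.23, 3.22 and 3.02. None of these 3 overlapped a SEP3wt peak, beside 53.3% of the whole SEP3tet list that did. Their neighbouring summits were 476 and 528 bp apart. Beside TEM1, a further SEP3tet peak without a SEP3wt counterpart lay 5357 bp from the gene on the side of lower coordinates (chromosome 1, 8975985 to 8976357; fold 3.65), so that SEP3tet had 5 summits within 9 kb of TEM1 and SEP3wt had 4.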
